A study of Mus musculus with 6 samples.

Results

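The genes described here encode respiratory complex I, the NADH:ubiquinone oxidoreductase of mitochondria, and were chosen by name: protein-coding genes whose symbol starts with Nduf followed by a, b, c, s or v and a number (nuclear genome), or with mt-Nd (mitochondrial genome), and whose reads summed over the 6 libraries reached 30. Of 47 symbols that matched, 3 were not protein-coding and 0 fell under the minimum, which left 44 genes, 37 nuclear and 7 mitochondrial, of 35275 identifiers in the series. All 44 passed the filter on low counts and were among 16137 genes tested. Poly(A)-selected RNA from the spinal cord of 6 adult C57BL/6 mice was sequenced, one library per mouse. The 3 Sox2 cKO mice carried mGfap-Cre and Sox2fl/fl, so that the transcription factor gene Sox2 is deleted where the mouse Gfap promoter drives Cre, chiefly in astrocytes, while other cells keep it. The 3 Ctrl mice are given as mGfap-Cre:Sox2+/+ on the sample labels, as carrying either mGfap-Cre or Sox2fl/fl in the series design, and as Sox2fl/fl littermates in the study's methods, so the allele the controls share with Sox2 cKO is not settled. Age is given as postnatal day 90 in one label field and day 80 in another, the same for both groups. Libraries are named by their column numbers, Ctrl 2, 4 and 6 and Sox2 cKO 1, 3 and 5.

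Complex I takes electrons from NADH, passes them along iron-sulfur clusters to ubiquinone and pumps protons across the inner mitochondrial membrane. Its matrix arm holds the NADH-oxidizing N module and the ubiquinone-reducing Q module, and its membrane arm holds the proton pumps. The conserved core subunits do the chemistry and the pumping; those of the membrane arm are encoded in mitochondrial DNA, those of the matrix arm in the nucleus, and the many supernumerary subunits, all nuclear, surround them. In nervous tissue, which depends on respiration, the enzyme is abundant and its inherited defects affect the brain.

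The libraries held 21507911 to 28392184 reads on genes. Sox2 was at 19.9, 14.8 and 29.5 CPM (counts scaled to library size with the trimmed mean of M values) in Ctrl 2, 4 and 6 and at 3.16, 2.69 and 2.98 CPM in Sox2 cKO 1, 3 and 5, a log2 fold change of -2.86 (SE 0.24, edgeR adjusted p = 0.000956). Markers of neurons, astrocytes and oligodendrocytes were all detected. The summed CPM of 10 astrocyte markers was 8443 to 10240 in Ctrl and 6500 to 6732 in Sox2 cKO, that of 4 oligodendrocyte precursor markers was 149 to 168 and 94.2 to 123, and that of 8 neuron markers was 3620 to 4379 and 4366 to 4731. In edgeR, 5 of the astrocyte markers, all 4 precursor markers and 0 of the neuron markers were called lower, and 1 astrocyte and 1 neuron marker were called higher; with the correction for gene length described further on, 2 astrocyte, 2 precursor, 1 oligodendrocyte and 1 microglia marker were called lower. In whole cord, fewer cells of a type and less RNA per cell cannot be told apart, and the part of cell makeup in the results that follow was not tested.

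The sequences that matter most for reading the mitochondrial values are those with near-identical copies in the nuclear genome, because a read from such a stretch has more than one place to map. The first 100 bases of mt-Nd4l (chrM:9877-10173, plus strand) and mt-Nd3 (chrM:9459-9806, plus strand), each a single coding exon, are set beside the annotated nuclear copies Gm10222 (chr1:24612407-24612700, minus strand) and Gm28438 (chr1:24612775-24613119, minus strand), all from GENCODE M21 transcripts on GRCm38, read 5′ to 3′ along each gene. Capitals mark bases that differ within a pair.
mt-Nd4l: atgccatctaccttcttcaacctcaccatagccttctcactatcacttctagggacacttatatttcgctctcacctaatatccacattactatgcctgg
Gm10222: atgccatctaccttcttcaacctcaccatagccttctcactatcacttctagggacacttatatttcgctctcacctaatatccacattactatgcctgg
mt-Nd3: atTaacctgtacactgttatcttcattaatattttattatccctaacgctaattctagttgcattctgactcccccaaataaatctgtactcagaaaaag
Gm28438: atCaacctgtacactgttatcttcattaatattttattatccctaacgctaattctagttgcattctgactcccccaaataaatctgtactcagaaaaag

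Over its whole length Gm10222 matched mt-Nd4l at 294 of 294 bases, and Gm28438 matched mt-Nd3 at 344 of 345. Another copy, Gm28439, matched mt-Nd4 at 876 of 876 bases. Cut into overlapping words of 50 bases, 98.8% of mt-Nd4l, 98.0% of mt-Nd3 and 62.2% of mt-Nd4 words also occurred in another annotated transcript, against 8.19% of mt-Nd2, 7.61% of mt-Nd5 and 0 of mt-Nd1 and mt-Nd6. The counts of mt-Nd4l, mt-Nd3 and, over much of its length, mt-Nd4 are therefore uncertain. Among the nuclear genes 17 shared no word of 50 bases with another transcript and 12 shared more than 10%, at most 39.7% (Ndufs3).

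Most nuclear genes were higher in Sox2 cKO and no mitochondrial gene was called higher. In edgeR, 27 of 37 nuclear genes were called higher and 0 lower, against 12.2% of all tested genes called higher and 12.4% called lower, and their median log2 fold change was 0.34 beside 0.02 over all tested genes. DESeq2 called 27 higher beside 12.9% of its tested genes, and limma on log2(FPKM + 1) called 29 higher beside 18.1%. Of the 7 mitochondrial genes, 0 were called higher and 2 lower (4 were lower and 0 higher at an unadjusted p under 0.05), with a median of -0.28; DESeq2 called 2 lower beside 15.2% of its tested genes and limma 1 beside 6.20%. All 7 mitochondrial fold changes lay below 0 in edgeR and DESeq2, but limma on log2(FPKM + 1), where the median of all genes was itself 0.09, put mt-Nd2 at 0.02 and mt-Nd3 at 0.08. The groups did not overlap, with Sox2 cKO higher, in 30 of the nuclear genes beside 22.6% of all tested genes, and with Sox2 cKO lower in 3 of the mitochondrial genes beside 22.1%. For a single gene, an exact two-sided permutation test of 3 against 3 mice cannot go below p = 0.1, which 33 of the 44 genes reached.

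**Figure D1:**
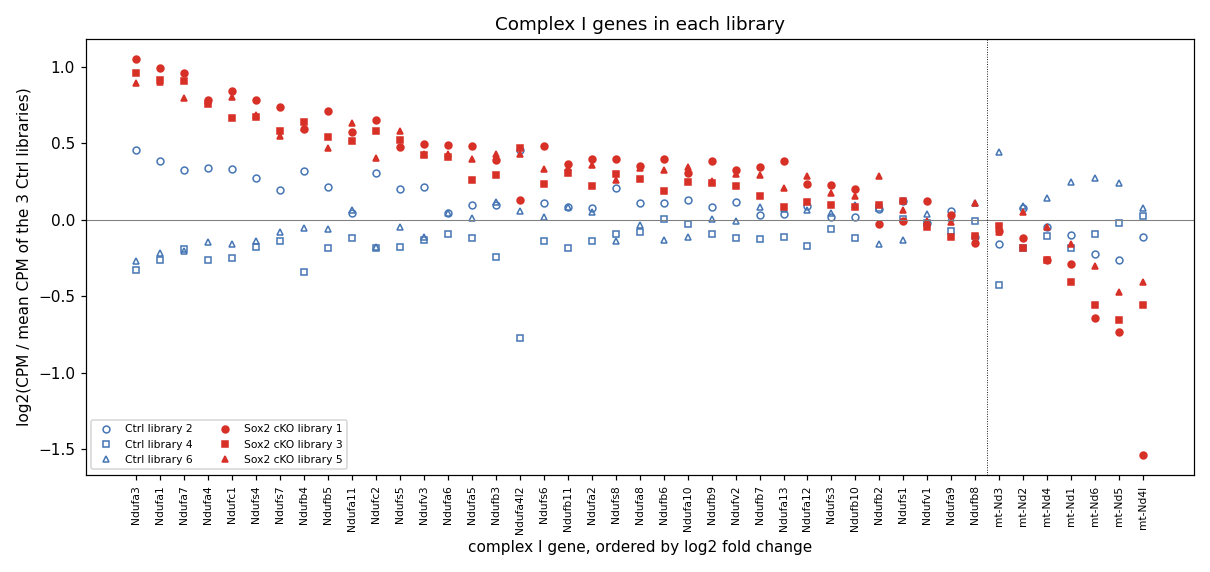
CPM of each complex I gene in each of the 6 libraries, as log2 of its ratio to the mean of the 3 Ctrl libraries (vertical axis), for 36 nuclear genes (left of the dotted line) and the 7 mitochondrial genes (right), each ordered by fold change. Filled red symbols are Sox2 cKO and open blue symbols are Ctrl libraries; the red symbols lie above all blue ones in 29 of the nuclear genes shown, and Ctrl library 2 is the highest Ctrl library in 27 of them.

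The number of calls changed with the libraries used. Without Ctrl 4 edgeR called 26 genes in the whole table and without Sox2 cKO 1 it called 8, and in both cases it called 0 nuclear complex I genes, although 26 and 27 of them had an unadjusted p under 0.05 and DESeq2 still called 15 and 17. Without Ctrl 2, Ctrl 6, Sox2 cKO 3 or Sox2 cKO 5, edgeR called 27, 12, 15 and 15 of them, so only leaving out Ctrl 2 kept the count. Ctrl 4 was the lowest Ctrl library in 28 of the 37 nuclear genes and Sox2 cKO 1 the highest Sox2 cKO library in 27, so these libraries stood at the far ends of the difference. The nuclear genes varied less in Sox2 cKO, with a median coefficient of variation of 5.04%, than in Ctrl, at 9.17%; over all tested genes these medians were 8.51% and 11.2%.

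Among the nuclear core subunits, 4 of 7 were called higher, beside 12.2% of all tested genes, with a median log2 fold change of 0.28. With the length correction 1 was called higher (median -0.02), beside 6.08% of all tested genes. By principal transcript 1 was called higher (median 0.002), beside 5.60%. The values that follow are uncorrected unless stated. The largest difference was in Ndufs7, whose protein carries the iron-sulfur cluster next to ubiquinone: its CPM was 74.1, 58.8 and 61.4 in Ctrl 2, 4 and 6 and 108, 96.8 and 94.7 in Sox2 cKO 1, 3 and 5. No Ctrl library reached the lowest Sox2 cKO library, and the log2 fold change was 0.62 (SE 0.10, edgeR adjusted p = 0.0124). Ndufs8, an iron-sulfur subunit beside it in the Q module, was at 89.6, 72.7 and 70.3 CPM in Ctrl and 102, 95.2 and 92.9 CPM in Sox2 cKO, with a log2 fold change of 0.32 (SE 0.10, edgeR adjusted p = 0.0414). It rose with no overlap between the groups, though its Ctrl 2 value came close to the Sox2 cKO range, and with the length correction it was at -0.03 (edgeR adjusted p = 0.804) and no longer called. Ndufs3, also a core subunit of the Q module, was at 88.6, 84.0 and 90.2 CPM in Ctrl and 102, 93.7 and 99.1 CPM in Sox2 cKO, apart but not called (log2 fold change 0.17, SE 0.07, edgeR adjusted p = 0.12).

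In the N module, Ndufv2, an iron-sulfur subunit at the entry of the chain, was at 166, 140 and 152 CPM in Ctrl and 191, 178 and 188 CPM in Sox2 cKO, and rose by a log2 fold change of 0.28 (SE 0.09, edgeR adjusted p = 0.0393), which was 0.04 and not called with the length correction (edgeR adjusted p = 0.670). Its partner Ndufv1, which binds NADH and the flavin, was at 178, 178 and 185 CPM and 196, 174 and 179 CPM, and Ndufs1, the largest iron-sulfur subunit, at 141, 130 and 118 CPM and 129, 142 and 136 CPM. For these both groups covered the same range, with log2 fold changes of 0.02 (SE 0.08, edgeR adjusted p = 0.850) and 0.06 (SE 0.09, edgeR adjusted p = 0.645). Subunits of the same module thus had unequal fold changes; the difference between them was not tested.

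Supernumerary subunits were called higher in 22 of 28 cases, beside 12.2% of all tested genes, with a median log2 fold change of 0.36. With the length correction 8 were called higher and 1 lower (median 0.09), beside 6.08% and 6.99% of all tested genes. With the principal transcript 5 were called higher and 3 lower (median -0.06), beside 5.60% and 7.20%. By place in the enzyme the counts were 8 of 9 in the proximal membrane arm (median 0.55), 7 of 10 in the distal membrane arm (0.30), 6 of 7 around the N module (0.45) and 1 of 2 around the Q module. The corrected counts on recovered length were 4, 2, 2 and 0, and by principal transcript the distal arm had 0 higher and 2 lower. Of the 4 highest, 3 belonged to the proximal membrane arm. Ndufa3 was at 116, 67.1 and 69.9 CPM in Ctrl 2, 4 and 6 and 175, 164 and 157 CPM in Sox2 cKO 1, 3 and 5, and Ndufa1 was at 62.9, 40.2 and 41.5 CPM and 95.9, 90.9 and 90.1 CPM. In both genes Ctrl 2 stood well above the other Ctrl libraries and below every Sox2 cKO library, and the log2 fold changes were 0.97 (SE 0.18, edgeR adjusted p = 0.0127) and 0.94 (SE 0.15, edgeR adjusted p = 0.0124). Ndufc1 went from 49.4, 33.0 and 35.1 CPM to 70.1, 62.0 and 68.3 CPM, a log2 fold change of 0.77 (SE 0.14, edgeR adjusted p = 0.0126). Ndufa7, of the N module, went from 45.2, 31.5 and 31.2 CPM to 70.1, 67.4 and 62.5 CPM, a log2 fold change of 0.89 (SE 0.14, edgeR adjusted p = 0.0123).

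At the other end, 4 supernumerary subunits had values that overlapped between the groups. Ndufb8, of the distal membrane arm, was at 98.4, 106 and 115 CPM in Ctrl and 95.8, 98.8 and 115 CPM in Sox2 cKO (log2 fold change -0.04, SE 0.09, edgeR adjusted p = 0.753). Ndufa9, which sits where the Q module meets the membrane, was at 158, 144 and 152 CPM and 155, 140 and 150 CPM (-0.03, SE 0.08, edgeR adjusted p = 0.805). These are the 2 nuclear genes below 0, and upper quartile scaling put Ndufa9 at 0.015 and Ndufb8 at 0.00. Ndufb2 and Ndufb10, both of the distal membrane arm, had log2 fold changes of 0.12 (SE 0.12, edgeR adjusted p = 0.455) and 0.15 (SE 0.09, edgeR adjusted p = 0.222).

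The genes that carry an Nduf symbol without being structural subunits of complex I fell on either side of the threshold. Ndufa4, whose product is now placed in cytochrome c oxidase, was the most abundant nuclear gene of the set per length and went from 223, 148 and 160 CPM to 304, 300 and 303 CPM, a log2 fold change of 0.77 (SE 0.14, edgeR adjusted p = 0.0125). With the length correction Ndufa4 was at 0.38 (edgeR adjusted p = 0.043), and by principal transcript at 0.25 and not called (edgeR adjusted p = 0.0725). Ndufa4l2, a hypoxia-responsive relative, was at 1.66, 0.706 and 1.25 CPM and 1.32, 1.67 and 1.62 CPM, overlapping and not called (0.36, SE 0.32, edgeR adjusted p = 0.432). Ndufab1, the acyl carrier protein and a complex I subunit that the naming rule does not catch, rose from 84.2, 68.8 and 75.8 CPM to 112, 121 and 124 CPM, a log2 fold change of 0.64 (SE 0.09, edgeR adjusted p = 0.0108).

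**Figure D2:**
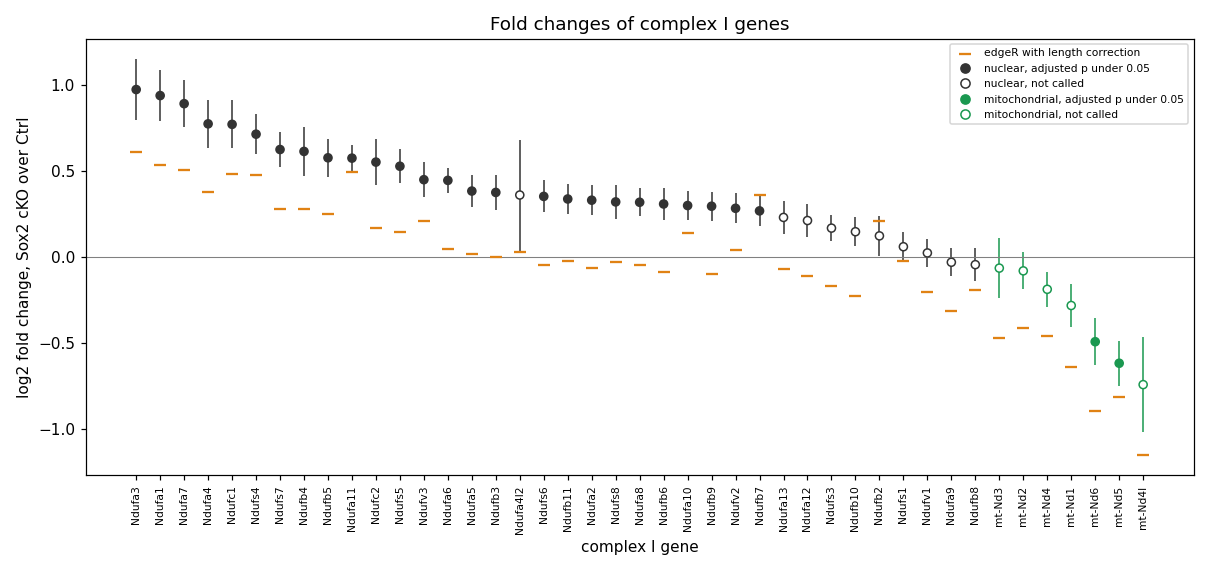
log2 fold change of Sox2 cKO over Ctrl for 36 nuclear and 7 mitochondrial complex I genes (points) with its standard error (bars), nuclear genes in black and mitochondrial genes in green, filled where the edgeR adjusted p is under 0.05; orange dashes give the same value after the length correction. Points run from 0.97 (Ndufa3) to -0.74 (mt-Nd4l), and the dashes lie below the points for all 7 mitochondrial genes.

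Promoters of 32 of the 37 nuclear genes (34 promoters, RefSeq on GRCm38.p6, 300 bases that end shortly after the start) were searched on both strands for letters of factors known to act on respiratory genes. GCGCATGC (NRF1), part of a longer palindrome and shortened after that had been searched, was in only 3 of the 34 promoters. This is 8.82%, beside 2.71% of all 32851 promoters. CCGGAAG (GABPA) was in 4 of the 34, which is 11.8% beside 8.86%. AAGATGGC (YY1), which includes the letters ATG of a start codon, was in 20.6% and 2.75%. It occurred in genes at both ends of the range, and 5 of the 7 genes that held it were called higher, beside 27 of 37 overall. Promoters of Ndufa3 (chr7:3617123-3617422, plus strand) and Ndufc1 (chr3:51408906-51409205, minus strand), among the highest, and of Ndufa9 (chr6:126849095-126849394, minus strand) and Ndufb8 (chr19:44555393-44555692, minus strand), the lowest, are shown 5′ to 3′ with AAGATGGC in capitals.
Ndufa3: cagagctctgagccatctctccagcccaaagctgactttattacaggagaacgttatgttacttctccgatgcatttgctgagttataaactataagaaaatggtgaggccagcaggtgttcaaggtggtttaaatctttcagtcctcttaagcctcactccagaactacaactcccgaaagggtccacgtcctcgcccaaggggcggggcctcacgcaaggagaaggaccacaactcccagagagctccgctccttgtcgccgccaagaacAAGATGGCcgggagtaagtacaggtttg
Ndufc1: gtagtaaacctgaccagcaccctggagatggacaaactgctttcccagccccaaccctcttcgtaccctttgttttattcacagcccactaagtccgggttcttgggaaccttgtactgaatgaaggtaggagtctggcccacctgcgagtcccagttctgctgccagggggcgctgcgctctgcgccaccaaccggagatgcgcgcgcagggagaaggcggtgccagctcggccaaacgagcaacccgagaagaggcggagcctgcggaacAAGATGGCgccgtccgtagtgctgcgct
Ndufa9: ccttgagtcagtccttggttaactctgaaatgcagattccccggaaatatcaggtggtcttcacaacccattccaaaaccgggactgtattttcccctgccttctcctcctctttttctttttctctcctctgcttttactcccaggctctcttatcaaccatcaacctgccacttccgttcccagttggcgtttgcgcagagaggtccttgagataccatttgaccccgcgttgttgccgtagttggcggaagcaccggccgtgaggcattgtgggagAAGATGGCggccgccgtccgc
Ndufb8: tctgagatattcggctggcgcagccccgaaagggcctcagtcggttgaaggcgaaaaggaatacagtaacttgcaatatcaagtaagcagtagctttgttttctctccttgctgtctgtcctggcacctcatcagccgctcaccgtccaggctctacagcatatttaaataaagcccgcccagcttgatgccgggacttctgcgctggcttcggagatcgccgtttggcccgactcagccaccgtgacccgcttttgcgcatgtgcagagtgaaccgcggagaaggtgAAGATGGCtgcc

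The mitochondrial genes that were called lower lie next to each other. mt-Nd5 (chrM:11742-13565, plus strand), the antiporter-like proton pump at the tip of the membrane arm, was at 6413, 7565 and 9086 CPM in Ctrl 2, 4 and 6 and 4622, 4878 and 5549 CPM in Sox2 cKO 1, 3 and 5. Every Ctrl library stood above every Sox2 cKO library, and the log2 fold change was -0.62 (SE 0.13, edgeR adjusted p = 0.0145). mt-Nd6 (chrM:13552-14070), the only one of the 7 on the minus strand, was at 1926, 2106 and 2716 CPM and 1444, 1530 and 1825 CPM, with a log2 fold change of -0.49 (SE 0.14, edgeR adjusted p = 0.0296). The mt-Nd5 and mt-Nd6 intervals overlap at their ends and the strand setting of the counting is not given in the sources used here, although the library kit keeps strand, so whether the mt-Nd6 count holds reads from the RNA opposite it is not known. edgeR lost the mt-Nd5 call without Ctrl 4, Sox2 cKO 1 or Sox2 cKO 3, and the mt-Nd6 call without any of these or without Ctrl 6, while DESeq2 called both genes lower in each of the 6 fits that leave out a library. Over the 6 edgeR fits the log2 fold change ran from -0.73 to -0.48 for mt-Nd5 and from -0.60 to -0.33 for mt-Nd6.

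The remaining mitochondrial genes were not called. mt-Nd1, which forms the ubiquinone channel, was at 9738, 9161 and 12350 CPM in Ctrl and 8527, 7862 and 9337 CPM in Sox2 cKO, so that Sox2 cKO 5 reached the range of Ctrl (log2 fold change -0.28, SE 0.12, edgeR adjusted p = 0.122). The antiporter-like subunits mt-Nd2 and mt-Nd4 overlapped as well, with log2 fold changes of -0.08 (SE 0.11, edgeR adjusted p = 0.613) and -0.19 (SE 0.10, edgeR adjusted p = 0.200). mt-Nd3 was at 67.7, 56.3 and 102 CPM and 71.7, 73.4 and 71.3 CPM (-0.06, SE 0.17, edgeR adjusted p = 0.812). mt-Nd4l had few reads, 2.82, 3.12 and 3.23 CPM and 1.05, 2.08 and 2.30 CPM, and did not pass although its groups were apart (-0.74, SE 0.27, edgeR adjusted p = 0.0717). The nuclear copy of mt-Nd4, Gm28439, was called lower, at 13.5, 16.6 and 19.5 CPM in Ctrl and 8.60, 9.44 and 10.9 CPM in Sox2 cKO (-0.78, SE 0.15, edgeR adjusted p = 0.0130). Gm10222 (-0.66, SE 0.39, edgeR adjusted p = 0.228) and Gm28438 (-0.04, SE 0.24, edgeR adjusted p = 0.923) were not. Of 9 listed nuclear copies of mitochondrial DNA that were tested, 0 were called higher and 1 lower, beside 12.2% and 12.4% of all tested genes. Gm28439 matched mt-Nd4 over its whole length, so reads of the 2 cannot be told apart there.

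Per length, in FPKM (reads scaled to gene length and library size), the mean Ctrl levels of the mitochondrial genes had a median of 4061, from 9.94 FPKM for mt-Nd4l to 10500 FPKM for mt-Nd1, and those of the nuclear genes a median of 95.9, from 1.22 FPKM for Ndufa4l2 to 349 FPKM for Ndufa4. The 2 lowest mitochondrial levels, mt-Nd4l and mt-Nd3, were those of the genes with nearly all of their sequence present elsewhere. Whether poly(A) selection recovered the RNA of both genomes alike, or mt-Nd6 as fully as the other mitochondrial genes, was not tested.

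The balance between both genomes differed between the groups. The reads of the 7 mitochondrial genes per read of the 37 nuclear genes were 7.79, 9.10 and 10.7 in Ctrl 2, 4 and 6 and 5.31, 5.58 and 6.31 in Sox2 cKO 1, 3 and 5, that is 9.20 ± 1.46 and 5.73 ± 0.514 (SD, n = 3). All Ctrl libraries stood above all Sox2 cKO libraries, and the ratio in Sox2 cKO was 0.623 times that in Ctrl. Nuclear complex I genes held 0.377%, 0.307% and 0.320% of reads in Ctrl and 0.489%, 0.444% and 0.450% in Sox2 cKO, and mitochondrial ones 2.94%, 2.79% and 3.43% and 2.60%, 2.48% and 2.84%, so the groups were apart for the nuclear share and overlapped for the mitochondrial share. Within the mitochondrial genome, the reads of mt-Nd5 per read of mt-Nd1 were 0.659, 0.826 and 0.736 in Ctrl and 0.542, 0.620 and 0.594 in Sox2 cKO, again apart. This ratio was not corrected for length, and mt-Nd5 has 1824 bases beside 957 for mt-Nd1. Their log2 fold changes were -0.62 and -0.28 without the length correction and -0.81 and -0.64 with it.

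**Figure D3:**
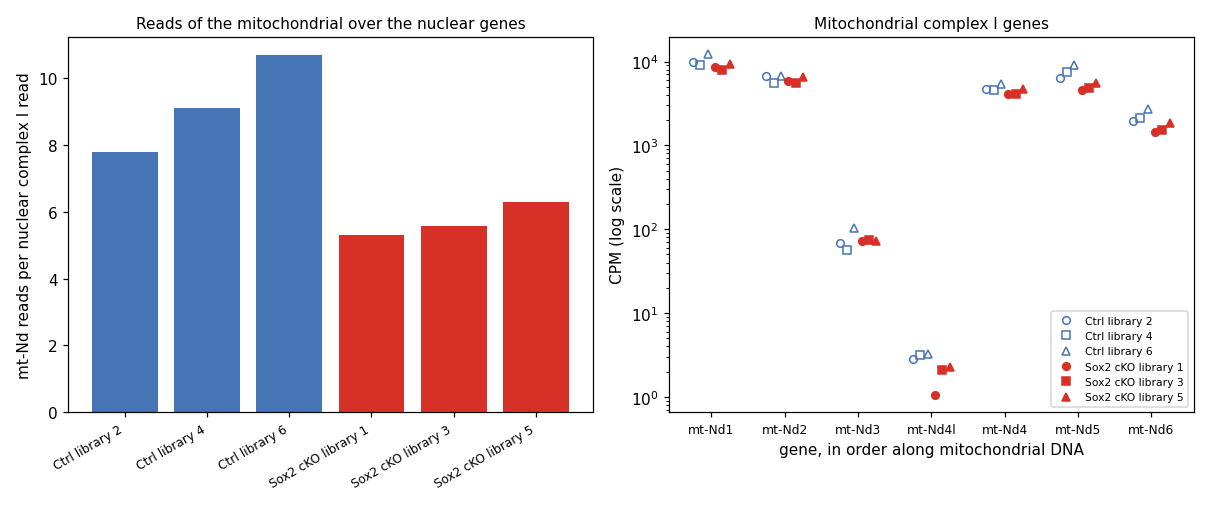
Left, reads of the 7 mitochondrial complex I genes per read of the 37 nuclear ones in each library (bars from 0), 7.79 to 10.7 in Ctrl (blue) and 5.31 to 6.31 in Sox2 cKO (red). Right, CPM of each mitochondrial gene on a log scale in the order of the genes along mitochondrial DNA, one symbol per library, open for Ctrl and filled for Sox2 cKO; mt-Nd5, mt-Nd6 and mt-Nd4l are the genes whose groups do not overlap.

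Fold change in these libraries went with gene length, so the members were compared with genes of their own length. Lengths, recovered from counts and FPKM, had a median of 971 bases for the nuclear genes and 3060 bases for all tested genes. Among protein-coding genes of up to 750 bases, 56.7% were called higher with a median log2 fold change of 0.56, beside 10 of 10 nuclear complex I genes with a median of 0.49. From there up to 1000 bases the values were 51.4% and 0.46 beside 8 of 10 and 0.37, and above that, up to 1500 bases, 34.1% and 0.32 beside 2 of 6 and 0.22. In all of these classes the median of the nuclear complex I genes lay below that of all tested protein-coding genes of the same class, complex I genes included. Over 1500 bases the order was the other way, 8.38% and -0.03 beside 7 of 11 and 0.28. That class has no upper limit, so its genes are not matched in length. Bins of all tested genes with median lengths of 1580, 1826 and 2049 bases had medians of 0.241, 0.195 and 0.157. The principal transcripts of Ndufa11, Ndufb7 and Ndufb8 had only 545, 623 and 680 bases. By principal transcript the class stood at 7.81% and -0.035 beside 5 of 8 and 0.288.

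The mitochondrial genes did not go with length in this way: of the 6 with up to 1500 bases, 0 were called higher. Across genes, which are not independent replicates, Spearman's rho between length and log2 fold change was -0.49 over the 37 nuclear genes, -0.48 over all tested genes and 0.07 over the 7 mitochondrial genes. The difference between short and long genes, as a curve fitted in each library, was -0.09, -0.35 and -0.27 on the log2 scale in Ctrl 2, 4 and 6 and 0.35, 0.17 and 0.20 in Sox2 cKO 1, 3 and 5, and the median of the nuclear complex I genes followed the same order of libraries at -0.06, -0.31, -0.19, 0.24, 0.11 and 0.19. What gave the libraries their length trend was not tested.

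**Figure D4:**
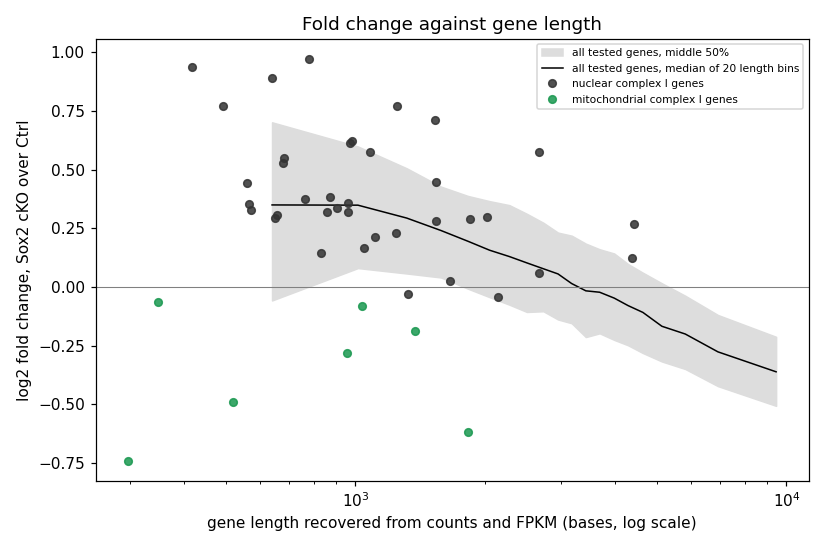
log2 fold change of Sox2 cKO over Ctrl (vertical axis) against gene length on a log scale for nuclear (black) and mitochondrial (green) complex I genes; the line and grey band give the median and the middle 50% of all tested genes in 20 bins of length. Short nuclear genes lie around the line, which falls with length, and all 7 mitochondrial genes lie below 0.

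With that curve taken out of each library, edgeR called 10 nuclear genes higher and 1 lower, beside 6.08% and 6.99% of all tested genes, and the nuclear median was 0.04. The curve was fitted on all tested genes, noncoding ones included. Up to 750 bases their uncorrected median was 0.345, beside 0.555 for protein-coding genes, so short protein-coding genes may keep part of the trend. The share of short protein-coding genes called after the correction was not examined. The 10 were also called without the correction, and 6 of them were called again when the length of the principal transcript was used instead (beside 5.60% of all tested genes): Ndufa3, Ndufa1, Ndufa7, Ndufc1, Ndufs4 and Ndufs7 (Ndufs4, an N module subunit, is named here after its value was seen). Their corrected log2 fold changes ran from 0.28 for Ndufs7 to 0.61 for Ndufa3. Ndufa9 was the gene called lower (-0.31, edgeR adjusted p = 0.0210). These calls also depended on single libraries: the corrected edgeR fit called 0 nuclear genes higher without Ctrl 4, Sox2 cKO 1 or Sox2 cKO 3 (10, 14 and 11 at an unadjusted p under 0.05), 1 without Ctrl 6, 6 without Sox2 cKO 5 and 13 without Ctrl 2. Recovered lengths exceeded the principal transcript by more than 1.5 times in 4 nuclear genes. For Ndufa11 and Ndufb7, at 4.88 and 7.12 times, the call held with the recovered length but not with the principal transcript (both named after their values were seen).

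The same correction moved the mitochondrial genes further down, to a median of -0.64 with 6 of 7 called lower, all but mt-Nd3, and to -0.77 with 7 of 7 with the principal transcript, where 7.20% of all tested genes were called lower. mt-Nd5 was then at -0.81 (edgeR adjusted p = 0.0187) and mt-Nd1 at -0.64 (edgeR adjusted p = 0.0206). Without Ctrl 4, Sox2 cKO 1 or Sox2 cKO 3 the edgeR fit corrected on recovered length called 0 of the 7 lower (7, 6 and 7 at an unadjusted p under 0.05), and without Ctrl 6 it called 1. The curve was fitted almost wholly on nuclear genes, and whether it applies to mitochondrial transcripts was not tested. The nuclear and mitochondrial genes had similar median lengths, 971 and 957 bases, so the correction moved both medians down. It could not remove a gap between the genomes and is no test of that gap. Most nuclear genes were no longer called higher with it.

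Of 20 factors that assemble complex I, 10 were called higher and 0 lower, beside 12.2% and 12.4% of all tested genes, with a median of 0.35. Without Ctrl 4 or Sox2 cKO 1 edgeR called 0 of them higher and DESeq2 2 and 3, and without Ctrl 6, Sox2 cKO 3 or Sox2 cKO 5 edgeR called 2, 3 and 5. Lyrm2, a small N module factor, rose by a log2 fold change of 0.78 (SE 0.14, edgeR adjusted p = 0.0127), Dmac1, of the distal membrane arm, by 0.73 (SE 0.12, edgeR adjusted p = 0.0124) and Dmac2 by 0.40 (SE 0.10, edgeR adjusted p = 0.0181). With the length correction 4 were called higher and 1 lower, beside 6.08% and 6.99% of all tested genes. By principal transcript 2 were called higher and 1 lower, beside 5.60% and 7.20%. On recovered length Lyrm2 and Dmac2 stayed called, and Dmac1 was at 0.35 and was not (edgeR adjusted p = 0.059). The protein genes of mitochondrial DNA outside complex I gave 0 calls among 5 tested in either direction: mt-Co1, of cytochrome c oxidase, was at 0.11 (SE 0.11, edgeR adjusted p = 0.475), mt-Cytb, of complex III, at -0.04 (SE 0.10, edgeR adjusted p = 0.809), and mt-Atp6, of ATP synthase, at 0.04 (SE 0.15, edgeR adjusted p = 0.871). The Ctrl mean of mt-Atp6 was 20.2 CPM beside 18660 CPM for mt-Co1, and both genes not named here were at 30.3 and 26.4 CPM. Whether nuclear copies share the sequence of these genes was not tested, so their counts may be uncertain in the same way. With the length correction all 5 lay below 0, with a median of -0.35, and mt-Cytb was called lower (-0.35, edgeR adjusted p = 0.0304). Whether mt-Nd5 and mt-Nd6 differed from these genes in their response was not tested.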

How the data were processed

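The deposited tables give, per the labels and the study's methods, raw gene counts (CASAVA, STAR 2.5 on mm10, HTSeq 0.6.1) and FPKM that the authors computed from them; strand setting, annotation release and read length are not given in the sources used here. Columns carry numbers only: 2, 4 and 6 were taken as Ctrl and 1, 3 and 5 as Sox2 cKO, and group means of scaled counts matched the study's own table for 1999 of 1999 genes as assigned and 0 when exchanged. The authors' comparison columns were not used. The main test was the quasi-likelihood test of edgeR 4.0.16 (R 4.3.3) after filterByExpr and scaling by the trimmed mean of M values, with Benjamini-Hochberg adjustment over the whole table and a threshold of 0.05; SE is the log2 fold change over the square root of F.

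Alternatives were DESeq2 1.42.0, upper quartile scaling, other filters, limma 3.58.1 on log2(FPKM + 1) and log2(FPKM + 0.1) where the mean FPKM reached 0.5, mitochondrial genes left out of scaling, scaling on protein-coding genes, leaving out each library, and a lowess correction (span 0.3) of log2 CPM for length within each library. The principal-transcript correction and length-corrected fits without single libraries were added after the data were seen. Lengths came from counts and FPKM (whole within 0.001 bases for 24439 of 24442 genes). GENCODE M21 named 34490 of 35275 identifiers; promoters are RefSeq's. Members, lists and tests were chosen with earlier results of these data known. Genes named singly are the mitochondrial and nuclear core genes, both non-subunits, the 4 highest and 4 lowest other subunits and up to 3 genes with the smallest p in each pathway list. 1 nuclear gene counts in the totals but is not reported here singly. Fits were also run on simulated data. The length trend simulated there was the same in every Sox2 cKO library, whereas the trend in the data differed between libraries. The simulation therefore does not show how well the length correction worked here.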

Additional observations from a re-analysis of the deposited data

How the results depend on the processing

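No paired analysis was possible because the table's columns carry no replicate number that the labels share. DESeq2, both other filters, mitochondrial genes left out of scaling and scaling on protein-coding genes changed no count or median of the complex I genes past the spread or by over 1.5 times. mt-Nd4l and Ndufa4l2 had few reads, and their values are the least precise. The correction for length moved the medians most, and leaving out Ctrl 4 or Sox2 cKO 1 moved the edgeR count of nuclear genes called higher most. The correction takes out any difference that goes with length, whatever its source, and the cause was not tested.

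With the correction on recovered length, longest transcript and principal transcript, edgeR called 10, 10 and 6 nuclear genes higher and 1, 1 and 3 lower, and 6, 6 and 7 mitochondrial genes lower. Nuclear medians were then 0.043, 0.047 and -0.026, and mitochondrial medians -0.64, -0.66 and -0.77. Assembly factors called higher numbered 4, 3 and 2 and lower 1, 2 and 1; 1, 1 and 1 other mitochondrial protein gene was called lower, 1, 0 and 0 biogenesis regulators lower, and 1, 1 and 0 of the NADH and ubiquinone enzymes higher. Under these corrections Ndufv1 was at -0.20, -0.23 and -0.21, Ndufs3 at -0.17, -0.19 and -0.21, Ndufs8 at -0.027, -0.039 and -0.063, Ndufb10 at -0.23, -0.24 and -0.34, mt-Co1 at -0.12, -0.15 and -0.14 and mt-Atp6 at -0.34, -0.35 and -0.45, Ndufs1 at -0.02 and -0.038 in the first and the next, and Ndufa4l2 at -0.026 in the last, all opposite in sign to their uncorrected values.

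With limma on log2(FPKM + 1) and log2(FPKM + 0.1), 1 and 1 mitochondrial genes were lower and 0 and 0 biogenesis regulators were called lower (4 in edgeR), the nuclear median was 0.44 with the smaller pseudocount, and the median of all genes shifted to 0.09 and 0.11. mt-Nd2 was then at 0.022 and 0.022, mt-Nd3 at 0.08 and 0.08, Ndufa9 at 0.068 and 0.069, Ndufb8 at 0.052 and 0.053, and mt-Cytb at 0.065 and 0.065. Upper quartile scaling put Ndufa9 at 0.015, Ndufb8 at 0.00 and mt-Cytb at 0.008. The share of tested genes of up to 1000 bases called higher was 35.1%, 53.6% among protein-coding genes and 52.6% by principal transcript.

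With 1 library left out in edgeR, in DESeq2 or with the length correction, nuclear genes called higher ranged from 0 to 28 and lower from 0 to 4, mitochondrial genes called lower from 0 to 7, the nuclear median from 0.01 to 0.41 and the mitochondrial median from -0.72 to -0.14. The lists ranged from 0 to 13 (assembly factors higher), 0 to 3 (lower), 0 to 6 (biogenesis regulators lower), 0 to 11 (mitochondrial DNA expression higher), 0 to 4 and 0 to 2 (NADH and ubiquinone enzymes higher and lower), and 0 to 1 and 0 to 2 (other mitochondrial protein genes higher and lower). The log2 fold changes that changed sign ranged from -0.22 to 0.66 for Ndufa4l2, -0.34 to 0.009 for Ndufa9, -0.26 to 0.20 for Ndufb10, -0.29 to 0.014 for Ndufb8, -0.073 to 0.12 for Ndufs1, -0.21 to 0.20 for Ndufs3, -0.069 to 0.43 for Ndufs8, -0.25 to 0.059 for Ndufv1, -0.51 to 0.15 for mt-Atp6, -0.18 to 0.22 for mt-Co1, -0.41 to 0.014 for mt-Cytb and -0.60 to 0.22 for mt-Nd3.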

Other observations

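Genes that read out and maintain mitochondrial DNA were called higher in 5 of 27 cases and lower in 0, beside 12.2% and 12.4% of all tested genes, with a median log2 fold change of 0.28. The count was 0 in edgeR and 3 in DESeq2 without Ctrl 4 and without Sox2 cKO 1, and 11 in edgeR without Ctrl 2. Slirp, which stabilizes mitochondrial mRNAs, was at 7.93, 4.61 and 5.21 CPM in Ctrl 2, 4 and 6 and 12.5, 12.3 and 11.1 CPM in Sox2 cKO 1, 3 and 5, a log2 fold change of 1.02 (SE 0.19, edgeR adjusted p = 0.0127). Ssbp1, which binds single-stranded mitochondrial DNA, rose by 0.84 (SE 0.16, edgeR adjusted p = 0.0128), and Mterf3, a negative regulator of mitochondrial transcription, by 0.80 (SE 0.14, edgeR adjusted p = 0.0125). All of these remained called with the length correction, at 0.95, 0.59 and 0.69.

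Of 13 regulators of mitochondrial biogenesis, 0 were called higher and 4 lower, beside 12.2% and 12.4% of all tested genes, and 9 were not called. With the length correction 1 was called lower, beside 6.99% of all tested genes, and 7 lay above 0, and limma called 0. Yy1 was at 54.8, 69.0 and 68.9 CPM in Ctrl and 46.5, 52.1 and 47.9 CPM in Sox2 cKO. It fell by a log2 fold change of -0.39 (SE 0.10, edgeR adjusted p = 0.0235). Letters of its factor were searched in the promoters, as were those of NRF1 and GABPA. Nrf1 and Gabpa, named here for that reason, were at -0.01 and 0.08 and not called (edgeR adjusted p = 0.959 and 0.547). Nfe2l1 and the coactivator gene Ppargc1b fell by -0.35 (SE 0.10, edgeR adjusted p = 0.0274) and -0.65 (SE 0.20, edgeR adjusted p = 0.0398). With the length correction Yy1 stayed called (edgeR adjusted p = 0.0258), while Nfe2l1 and Ppargc1b did not (edgeR adjusted p = 0.0598 and 0.0607).

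Of 10 other enzymes that feed electrons to ubiquinone or use NADH, 2 were called higher and 1 lower, shares near the 12.2% and 12.4% of all tested genes. Gpd2, the mitochondrial glycerol-3-phosphate dehydrogenase, was at 116, 135 and 133 CPM in Ctrl and 76.5, 84.9 and 84.0 CPM in Sox2 cKO, with a log2 fold change of -0.65 (SE 0.09, edgeR adjusted p = 0.0102). Sdhd, a membrane anchor of complex II, rose by 0.46 (SE 0.11, edgeR adjusted p = 0.0177) and Etfdh by 0.40 (SE 0.11, edgeR adjusted p = 0.0246). With the length correction Gpd2 and Etfdh stayed called, and Sdhd was at 0.18 and was not (edgeR adjusted p = 0.127).

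Of the other marker lists, oligodendrocytes, microglia, endothelial cells and red blood cells had 0 markers called in either direction by edgeR, with summed CPM that overlapped between the groups: 31630 to 35430 and 32000 to 34480 for oligodendrocytes, 215 to 262 and 175 to 224 for microglia, 159 to 195 and 160 to 230 for endothelial cells, and 57.1 to 165 and 76.8 to 98.4 for red blood cells.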
